A study of Mus musculus with 9 samples.

Results

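The 9 genes described here are Ddit4, a brake on the growth kinase complex mTORC1, and 8 genes of the cell's response to amino acid shortage, a response run by the transcription factor ATF4. They are Atf4 itself, Ddit3, Trib3, Sesn2, Asns, Psat1, Phgdh and Chac1. Ddit4 was selected on its measured values, which were higher in ERG leukemia than in both wild type groups, so its differences in those comparisons are given as a description with no test. The other 8 were taken as known ATF4 response genes, though earlier results of these data were known when the members were chosen. All 9 were found by symbol among the 19938 genes measured, each read by 1 probe set that names that gene alone.

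The arrays measured RNA of mouse bone marrow in 3 groups of 3 arrays. Whole marrow came from 3 wild type mice. Lineage-negative marrow came from 9 other wild type mice, pooled by 3, after a depletion kit had removed cells with mature blood cell markers. Leukemic marrow came from 3 transgenic ERG mice with a myeloid leukemia, killed once signs of disease had appeared, and the design text names no lineage depletion for it. ERG is a transcription factor of blood stem cells. The labels give 1 strain, C57BL6, for all samples, and state no treatment, age, promoter of the transgene or species of its ERG sequence. Values are intensities on arrays, given as log2, and a log2 difference of 1 is a doubling. Whole marrow and leukemia arrays each stand for 1 mouse and lineage-negative arrays for a pool, so the groups differ in what their spread covers.

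When amino acids run short, uncharged transfer RNA activates the kinase GCN2. GCN2 phosphorylates the translation factor eIF2alpha, as do PERK after stress in the endoplasmic reticulum, HRI when heme is scarce and PKR on sensing double-stranded RNA. General protein synthesis then slows, while the Atf4 message is translated more, so ATF4 rises largely without a rise in its own RNA. ATF4 binds the C/EBP-ATF response element, or CARE, and switches on genes of amino acid synthesis, import and transfer RNA charging. Ddit4, also called REDD1, is a further target, and hypoxia, glucocorticoids and p53 can induce it as well. In marrow, HRI couples globin synthesis in erythroid precursors to their heme supply.

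Asns, Chac1 and Trib3 carry the core letters of a CARE, TGATGNAA on either strand, in the window from 250 bases before to 50 bases after the gene's start. These 3 windows are shown because they let the element be set beside the values. That of Ddit4 is shown because its values lead this account. The sequences are those of RefSeq on GRCm38.p6, 5′ to 3′ on the gene's strand. The Asns window is chr6:7693160-7693459 on the minus strand, that of Chac1 chr2:119350992-119351291 on the plus strand, that of Trib3 chr2:152344011-152344310 on the minus strand and that of Ddit4 chr10:59951721-59952020 on the minus strand. Capitals mark the CARE core in the first 3 sequences. In that of Ddit4 they mark ACGTG, a form of the core that hypoxia-inducible factors bind and the only form searched.
Asns: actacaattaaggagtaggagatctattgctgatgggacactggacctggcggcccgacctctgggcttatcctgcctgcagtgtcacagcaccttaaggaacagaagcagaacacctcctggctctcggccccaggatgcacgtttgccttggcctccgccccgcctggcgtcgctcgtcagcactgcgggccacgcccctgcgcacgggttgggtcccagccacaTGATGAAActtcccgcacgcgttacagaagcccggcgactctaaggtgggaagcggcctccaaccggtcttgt
Chac1: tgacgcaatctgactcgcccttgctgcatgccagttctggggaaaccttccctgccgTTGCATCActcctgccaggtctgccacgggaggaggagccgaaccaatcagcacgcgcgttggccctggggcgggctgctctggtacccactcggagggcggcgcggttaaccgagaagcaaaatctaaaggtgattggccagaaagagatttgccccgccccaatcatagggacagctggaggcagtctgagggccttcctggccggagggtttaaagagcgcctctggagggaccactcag
Trib3: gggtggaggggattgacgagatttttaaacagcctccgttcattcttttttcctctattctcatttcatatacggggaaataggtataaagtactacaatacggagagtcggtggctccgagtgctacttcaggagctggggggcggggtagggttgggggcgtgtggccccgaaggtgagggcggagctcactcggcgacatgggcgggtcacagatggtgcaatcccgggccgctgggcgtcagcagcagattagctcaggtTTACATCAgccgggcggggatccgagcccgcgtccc
Ddit4: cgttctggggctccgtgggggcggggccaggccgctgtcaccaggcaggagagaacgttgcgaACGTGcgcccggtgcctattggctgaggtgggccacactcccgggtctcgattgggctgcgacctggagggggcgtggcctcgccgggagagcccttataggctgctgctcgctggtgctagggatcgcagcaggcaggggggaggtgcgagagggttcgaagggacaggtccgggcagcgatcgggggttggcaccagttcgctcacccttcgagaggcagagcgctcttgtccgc

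In the Asns window the match began at position -23 from the start site, and it is the element through which the gene is known to answer amino acid shortage. In the Chac1 window it began at position -193, on the opposite strand. In the Trib3 window it began at position 15, inside the transcript, also on the opposite strand. No window of the other 6 genes held TGATGNAA. Of the 32851 promoter windows of this length in the table, 3.97% held it. The shorter ACGTG was found for Ddit4, Ddit3, Asns and Psat1, in 4 of the 10 windows of the 9 genes and in 19.6% of all windows. Psat1 has 2 windows in the table, and 1 of them held it. It does not overlap the CARE core in Asns. A match here is a description of the letters and not a bound site.

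Median intensity per array lay between 32.3 and 34.4, and the median over all probe sets was 33.4, or 5.06 on the log2 scale. The mouse Erg gene was lower in the arrays labelled transgenic, at a mean of 6.37 against 7.29 in whole and 6.80 in lineage-negative marrow. Its probe set checks nothing about a transgene of unstated species. Lineage depletion was visible in mature neutrophil markers, whose mean log2 intensity ran from 5.68 to 7.23 in lineage-negative arrays, 11.55 to 11.87 in whole marrow and 9.88 to 10.55 in the leukemias. Since these are bulk samples, more cells of a type and more RNA per cell cannot be told apart.

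Ddit4, whose protein holds back mTORC1 through the TSC1 and TSC2 proteins, had its highest signal in the leukemias. Its log2 intensity was 7.69, 7.93 and 7.66 in leukemias 1, 2 and 3. It was 5.98, 5.48 and 5.82 in lineage-negative pools 1, 2 and 3, and 5.42, 5.29 and 5.27 in whole marrow arrays 1, 2 and 3. The lowest leukemia thus stood above every wild type array, and the SD among the leukemias was 0.149 (n = 3), against a median of 0.127 over all genes. Mean intensity was 216.2 in the leukemias, 54.2 in lineage-negative and 40.2 in whole marrow. The leukemias stood 5.38-fold above whole marrow, a log2 difference of 2.43 ± 0.13 (SE), and 3.99-fold above lineage-negative marrow, a difference of 2.00 ± 0.13. These are the differences for which the gene was chosen. The whole marrow values of Ddit4, 5.27 to 5.42, lay near the median of all probe sets, 5.06, which limits how low a level can be read there.

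Between the wild type groups, a contrast its choice did not use, Ddit4 was 1.35-fold higher in lineage-negative than in whole marrow (log2 difference 0.43 ± 0.13, limma adjusted p = 0.0353). All 3 pools lay above all 3 whole marrow arrays. The call was lost after 75th percentile centring (log2 difference 0.308), after cyclic loess (0.216) and with an intensity trend (0.431). It was also lost with whole marrow array 1 (0.477), 2 (0.414) or 3 (0.403) or pool 1 (0.319) or 3 (0.401) left out.

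**Figure D1:**
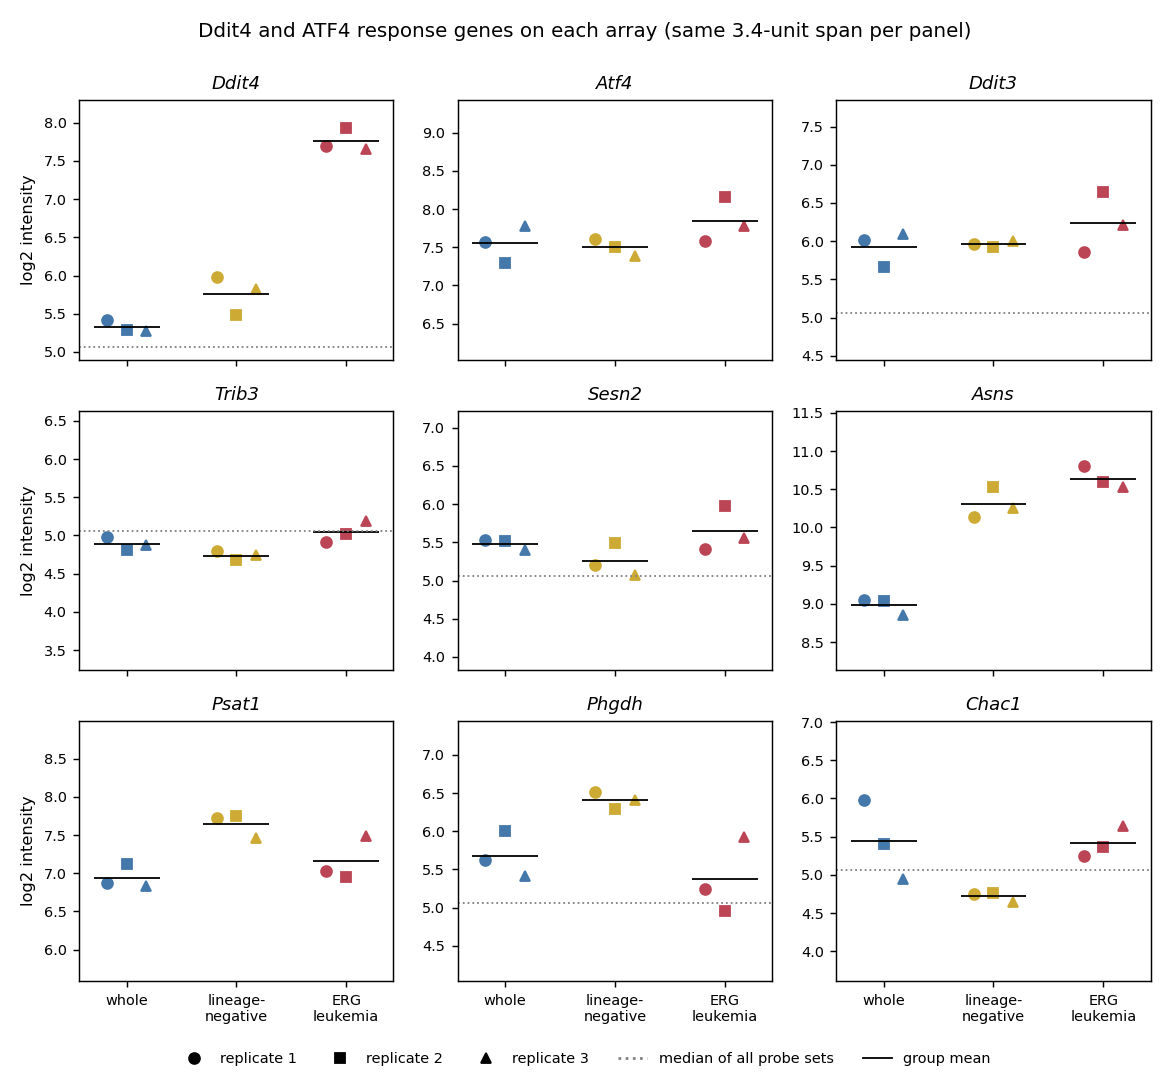
Log2 intensity (vertical axis, with the same span in every panel) of the 9 genes on each array, by group (horizontal axis). Points are arrays with their replicate number as shape, bars are group means and the dotted line is the median of all probe sets, 5.06. Ddit4 stands at 7.66 to 7.93 in the leukemias and no higher than 5.98 elsewhere, and Asns is low in whole marrow alone, at 8.86 to 9.05.

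Atf4, the regulator itself, differed little between groups. It read 7.58, 8.16 and 7.78 in leukemias 1, 2 and 3, against 7.61, 7.51 and 7.38 in the lineage-negative pools and 7.57, 7.30 and 7.78 in whole marrow. The groups overlapped, with leukemia 2 the highest of the 9 arrays. The difference from whole marrow was 0.29 ± 0.17 (95% interval -0.09 to 0.67, limma adjusted p = 0.261), and that from lineage-negative marrow was 0.34 ± 0.17 (-0.03 to 0.72, adjusted p = 0.271). As ATF4 is set largely in translation, its RNA is not a reading of its protein.

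Ddit3 and Trib3, a transcription factor and an inhibitor downstream of ATF4, did not pass the test in any of the 3 comparisons. Ddit3 encodes CHOP, which drives cell death under lasting stress, and Trib3 a pseudokinase that binds ATF4 and CHOP and damps them. Ddit3 read 5.86, 6.64 and 6.21 in the leukemias, between 5.92 and 6.0 in lineage-negative pools and between 5.66 and 6.10 in whole marrow. Leukemia 1 thus stood below all 3 pools and leukemia 2 above every wild type array. The Ddit3 difference was 0.31 ± 0.19 from whole marrow (95% interval -0.11 to 0.74, limma adjusted p = 0.286) and 0.28 ± 0.19 from lineage-negative marrow (-0.15 to 0.70, adjusted p = 0.462). Trib3 lay near the array median throughout, at 4.91, 5.02 and 5.19 in the leukemias against 4.68 to 4.79 and 4.81 to 4.98. Its leukemias lay above all lineage-negative pools by 0.30 ± 0.09, with an adjusted p of 0.0752 by limma. Without leukemia 1 that difference was 0.368 and passed, at an adjusted p of 0.0495. A signal this close to the median limits how small a change can be seen.

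Sesn2 and Chac1, which act on amino acid and glutathione economy, did not separate leukemia from whole marrow. Sesn2 encodes Sestrin 2, which senses leucine and holds mTORC1 back. Sesn2 read 5.41, 5.98 and 5.56 in the leukemias, 5.20, 5.49 and 5.07 in the lineage-negative pools and 5.53, 5.52 and 5.40 in whole marrow, so all groups overlapped. The Sesn2 differences were 0.16 ± 0.16 from whole marrow (limma adjusted p = 0.535) and 0.40 ± 0.16 from lineage-negative marrow (adjusted p = 0.171), and without leukemia 2 the first was 0. Chac1 encodes an enzyme that degrades glutathione and is among the most sensitive ATF4 targets. Chac1 read 5.24, 5.37 and 5.64 in the leukemias, 4.75, 4.76 and 4.64 in the pools and 5.98, 5.40 and 4.94 in whole marrow. Whole marrow spread widely (SD 0.519), and its array 1 was the highest of all 9. Chac1 was lower in lineage-negative than in whole marrow by 0.73 ± 0.23 on the log2 scale (adjusted p = 0.036), with the pools below the median of all probe sets. With whole marrow array 1 (-0.459) or 2 (-0.748) or pool 1 (-0.745), 2 (-0.749) or 3 (-0.69) left out it no longer passed. All 3 leukemias also lay above all 3 pools, by 0.70 ± 0.23 (95% interval 0.18 to 1.22, adjusted p = 0.102). That difference passed with the 2 groups alone (limma adjusted p = 0.0241) and without whole marrow array 1 (adjusted p = 0.0351) or 3 (adjusted p = 0.0423). From whole marrow the leukemias differed by -0.03 ± 0.23 in Chac1 (-0.55 to 0.49).

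Asns, which makes asparagine, was lower in whole marrow than in either other group. It read 10.80, 10.59 and 10.53 in leukemias 1, 2 and 3, and 10.13, 10.53 and 10.26 in lineage-negative pools 1, 2 and 3. In whole marrow it read 9.05, 9.04 and 8.86, below all 6 other arrays. Asns rose 3.15-fold in the leukemias over whole marrow (1.66 ± 0.12, limma adjusted p = 0.000398), the mean intensity going from 505.9 to 1595.9. It rose 2.50-fold in lineage-negative over whole marrow (1.32 ± 0.12, adjusted p = 0.000119). Leukemias and pools did not overlap either, though leukemia 3 and pool 2 both rounded to 10.53. Their difference was 0.33 ± 0.12 (95% interval 0.06 to 0.61, adjusted p = 0.139). Both calls held in every alternative tried, with differences from 1.489 to 1.712 and from 1.129 to 1.412. The drug asparaginase, used in lymphoid leukemia, removes asparagine from the blood, and cells with little Asns are known to depend on that supply.

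Phgdh and Psat1, genes of serine synthesis, did not pass against whole marrow in the leukemias, where Asns did. The difference between these genes and Asns was not tested. Phgdh encodes the enzyme that commits glucose carbon to serine, and Psat1 the aminotransferase of the next step. Phgdh read 5.25, 4.96 and 5.92 in leukemias 1, 2 and 3, 6.52, 6.29 and 6.41 in the lineage-negative pools and 5.62, 6.0 and 5.42 in whole marrow. Every leukemia lay below every pool, and leukemia 2 lay below the median of all probe sets. Phgdh was 2.05-fold lower in the leukemias than in lineage-negative marrow (-1.03 ± 0.24, limma adjusted p = 0.0324) and did not pass against whole marrow (-0.31 ± 0.24, adjusted p = 0.425). The call against lineage-negative marrow was lost with the 2 groups alone (-1.035), and with whole marrow array 1 (-1.035), pool 1 (-0.979), 2 (-1.094) or 3 (-1.032), or leukemia 1 (-0.972) or 2 (-0.827) left out. Psat1 read 7.03, 6.95 and 7.49 in the leukemias, 7.72, 7.75 and 7.46 in the pools and 6.87, 7.12 and 6.83 in whole marrow. Leukemia 3 reached the level of the lowest pool, and the other two stood within the whole marrow range. The Psat1 difference from lineage-negative marrow was -0.49 ± 0.16 (adjusted p = 0.0945, and 0.0302 at -0.656 without leukemia 3), and that from whole marrow 0.22 ± 0.16 (adjusted p = 0.389).

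Within wild type marrow both serine genes rose with lineage depletion. Psat1 rose 1.63-fold (0.70 ± 0.16, limma adjusted p = 0.00735), a call lost after cyclic loess (log2 difference 0.428). Phgdh rose 1.66-fold (0.73 ± 0.24, adjusted p = 0.0426). The Phgdh call was lost after 75th percentile centring (log2 difference 0.603) or cyclic loess (0.584). It was also lost with whole marrow array 1 (0.695) or 3 (0.597), pool 1 (0.671), 2 (0.786) or 3 (0.724), or leukemia 1 (0.727) left out. Psph, which encodes the last enzyme of the same route, read 6.47, 6.28 and 6.71 in the leukemias, 6.23, 6.56 and 6.12 in the pools and 5.53, 5.85 and 5.79 in whole marrow. Psph passed against whole marrow in the leukemias (0.76 ± 0.15, adjusted p = 0.00762), where Phgdh and Psat1 did not, though the difference between the genes was not tested. Against lineage-negative marrow Psph did not pass (0.18 ± 0.15, adjusted p = 0.57).

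Counted over the 8 genes other than Ddit4, 1 rose and 0 fell in the leukemias against whole marrow, where limma called 14.6% of all 19938 genes higher and 9.93% lower. Their median log2 difference was 0.19, against -0.02 over all genes. Against lineage-negative marrow 0 rose and 1 fell, where 2.95% of all genes were called higher and 5.74% lower. The median was 0.32 against 0.01 over all genes, and 6 of the 8 differences were above 0 in each comparison. At an unadjusted p under 0.05, 4 lay above lineage-negative marrow, namely Trib3 (0.00861), Chac1 (0.0141), Asns (0.0234) and Sesn2 (0.0325), and 2 below it, Phgdh (0.00203) and Psat1 (0.0124). Of all genes, 8.33% lay above and 14.3% below at that threshold. Against whole marrow the count was 1 above and 0 below, where 19.3% and 15.6% of all genes did. Between the wild type groups 4 of the 9 rose (Ddit4, Asns, Psat1 and Phgdh) and 1 fell (Chac1), where 21.7% of all genes were higher and 13% lower in lineage-negative marrow. That count of 5 was 3 after 75th percentile centring and 2 after cyclic loess. The arrays of Asns lay wholly above whole marrow in the leukemias, as did 19.4% of all genes, and 0 of the 8 lay wholly below, as did 17.7%. Against lineage-negative marrow Trib3, Asns and Chac1 lay wholly above, 3 of 8 where 11.6% of all genes did, and Phgdh wholly below, 1 of 8 where 16.3% did. Between the wild type groups Ddit4, Asns, Psat1 and Phgdh lay wholly above whole marrow, 4 of 9 where 26.6% of all genes did, and Trib3 and Chac1 wholly below, 2 of 9 where 23.4% did. The 3 comparisons share groups of arrays and are not independent of each other.

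**Figure D2:**
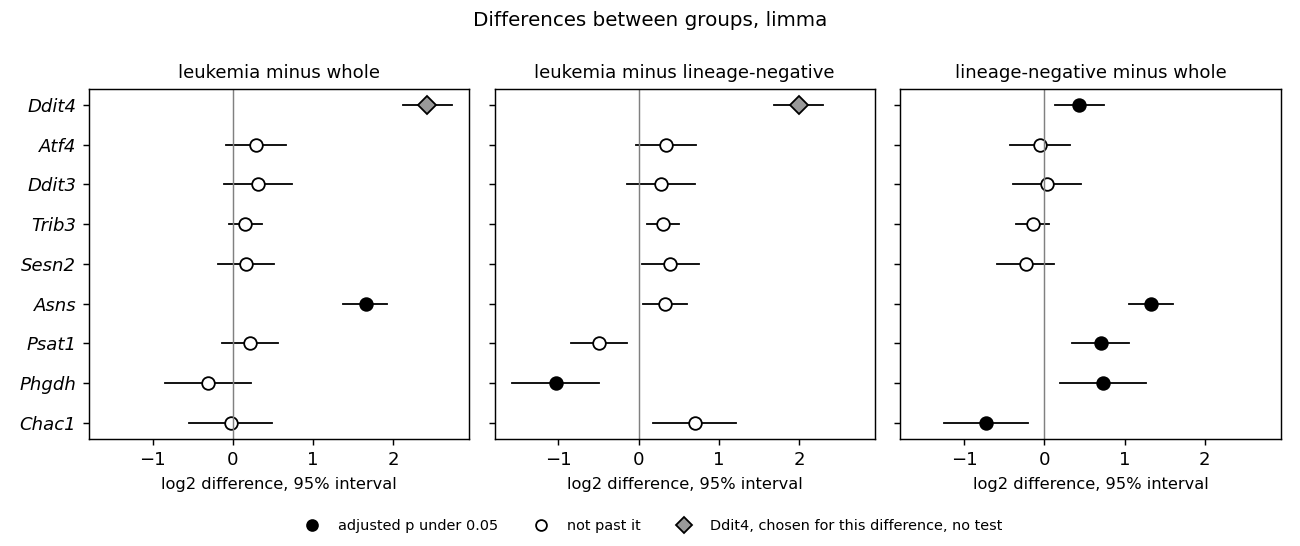
Log2 difference (horizontal axis) of each gene in the 3 comparisons, with its 95% interval from the limma fit. Filled circles passed an adjusted p of 0.05, open circles did not, and grey diamonds are Ddit4 in the comparisons it was chosen for. Asns passed against whole marrow at 1.66 and 1.32, and Phgdh lay at -1.03 between leukemia and lineage-negative marrow.

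The 3 leukemias were not alike in these genes. Leukemia 2 was the highest of the 3 for 4 genes, Ddit4, Atf4, Ddit3 and Sesn2, and the lowest for Psat1 and Phgdh. Leukemia 3 was the highest for 4 genes as well, Trib3, Psat1, Phgdh and Chac1, and the lowest for Ddit4 and Asns. Asns was highest in leukemia 1. By this count leukemia 2 did not stand out from leukemia 3. Leukemia 1 was the lowest for 5 genes, Atf4, Ddit3, Trib3, Sesn2 and Chac1. The range among the leukemias went from 0.27 in Ddit4 and Asns to 0.77 in Ddit3 and 0.96 in Phgdh, against a median range of 0.242 over all genes. Leukemia 2 also had the highest signal of Ppp1r15a, which encodes the GADD34 subunit that reverses eIF2alpha phosphorylation, at 8.51 against 7.35 and 7.47 in leukemias 1 and 3. In the same animal the mean of erythroid markers was 9.74, against 8.74 and 9.50, and that of megakaryocyte and platelet markers 8.16, against 6.52 and 7.48. Means lower in leukemia 2 than in leukemias 1 and 3 were those of monocyte and macrophage markers (7.05 against 8.19 and 8.09), mature neutrophil markers (9.88 against 10.55 and 10.26), plasma cell markers (4.52 against 5.39 and 5.97) and T and NK cell markers (5.12 against 5.54 and 5.56). Those of B cell, stem and progenitor, and cycling cell markers in leukemia 2 were within the range of the other leukemias. The part of these cell types in the values was not tested.

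Kinases that start the response were described from a list of 13 measured genes of eIF2alpha control. Against whole marrow 7 rose and 1 fell in the leukemias, with a median of 0.58 against -0.02 over all genes. Eif2ak1, which encodes the heme sensor HRI, read 8.87, 9.60 and 9.33 in the leukemias and 8.40 to 8.56 in whole marrow, and rose by 0.76 ± 0.17 (limma adjusted p = 0.013). Eif2ak3, which encodes PERK, fell by 1.07 (adjusted p = 0.00256), from 7.73 to 8.03 in whole marrow to between 6.51 and 7.10. Eif2ak4, which encodes GCN2, did not pass (0.50 ± 0.16, adjusted p = 0.0554), nor did Eif2ak2, which encodes PKR (0.21 ± 0.19, adjusted p = 0.5). Ppp1r15a rose by 1.14 ± 0.31 (limma adjusted p = 0.0276). Its call was lost after cyclic loess (log2 difference 0.974), with the 2 groups alone (1.137) and without whole marrow array 1 (1.157) or 2 (0.915). Eif2b3, a subunit of the exchange factor eIF2B, rose by 1.13. Against lineage-negative marrow 0 rose and 1 fell by limma (1 and 2 at an unadjusted p under 0.05). The gene that fell was Eif2b1 at -0.44 (adjusted p = 0.0442), a call lost after both scalings, with an intensity trend, with the 2 groups alone, and when any array but whole marrow array 2 or pool 3 was left out, at values from -0.467 to -0.327. Lineage-negative marrow differed from whole marrow with 6 up and 1 down (Eif2ak3, -0.96). Of all genes, 14.6% were called higher and 9.93% lower in the leukemias against whole marrow. The shares were 2.95% and 5.74% against lineage-negative marrow, and 21.7% and 13% between the wild type groups.

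Transfer RNA charging genes, amino acid transporters and synthesis enzymes, which ATF4 is known to switch on, differed from whole marrow in the leukemias and in lineage-negative marrow. Of 12 aminoacyl-tRNA synthetase and export genes, 12 rose in the leukemias (median 0.93) and 12 in lineage-negative marrow (median 1.04). Of all genes, 14.6% and 21.7% were called higher in these comparisons. Between leukemia and lineage-negative marrow 0 passed, and the median was -0.09. Tars read 7.47, 7.72 and 7.83 in the leukemias, 7.47, 7.90 and 7.24 in the pools and 6.24 to 6.46 in whole marrow. Tars rose by 1.33 ± 0.17 in the leukemias (limma adjusted p = 0.00128). Eprs rose by 1.10 ± 0.12 there and by 1.30 ± 0.12 in lineage-negative marrow. In the latter comparison 10 of the 12 passed after cyclic loess, without Cars (log2 difference 0.206) and Nars (0.333).

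Of 9 transporter genes, 6 rose and 1 fell in the leukemias against whole marrow (median 0.72), and the 6 were 4 after cyclic loess, with the 2 groups alone, and without whole marrow array 1 or 2, pool 1 or 3 or leukemia 2 or 3. Of the same 9, 4 rose and 1 fell in lineage-negative marrow (median 0.55). Of all genes, 14.6% were called higher and 9.93% lower in the leukemias, and 21.7% and 13% in lineage-negative marrow, each against whole marrow. Slc7a5, the light chain of the leucine importer LAT1, rose by 1.83 ± 0.18 and by 1.67 ± 0.18 (limma adjusted p = 0.000666 and 0.000232). The gene that fell was Slc7a11, the cystine importer and a known ATF4 target. Slc7a11 read 7.08, 6.49 and 6.32 in whole marrow against 4.97, 4.24 and 4.43 in the leukemias and 4.14 to 4.35 in the pools. The leukemia and pool values lie below the median of all probe sets, so its falls of -2.08 ± 0.23 and -2.41 ± 0.23 are limited by background. Of 12 synthesis and one-carbon genes, 6 rose and 1 fell in the leukemias (median 0.47). Shmt2, the mitochondrial enzyme that turns serine into glycine, rose by 1.55 ± 0.12 (adjusted p = 0.000422), with 8.82 to 8.92 in the leukemias, 8.65 to 9.07 in the pools and 7.18 to 7.44 in whole marrow. Aldh18a1, which opens proline synthesis, rose by 1.36 ± 0.15. The gene that fell was Gfpt1 (-0.46), a call lost with the 2 groups alone, with an intensity trend, and without whole marrow array 1 or 2 or pool 1 or 3. In lineage-negative marrow 5 rose and 0 fell (median 0.29). Against lineage-negative marrow 0 transporter and 0 synthesis genes passed by limma, with medians of 0.16 and -0.01. At an unadjusted p under 0.05 there were 1 transporter higher and 1 lower, 3 synthesis genes lower and 1 synthetase list gene lower. Of all genes, 8.33% lay higher and 14.3% lower at that threshold.

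**Figure D3:**
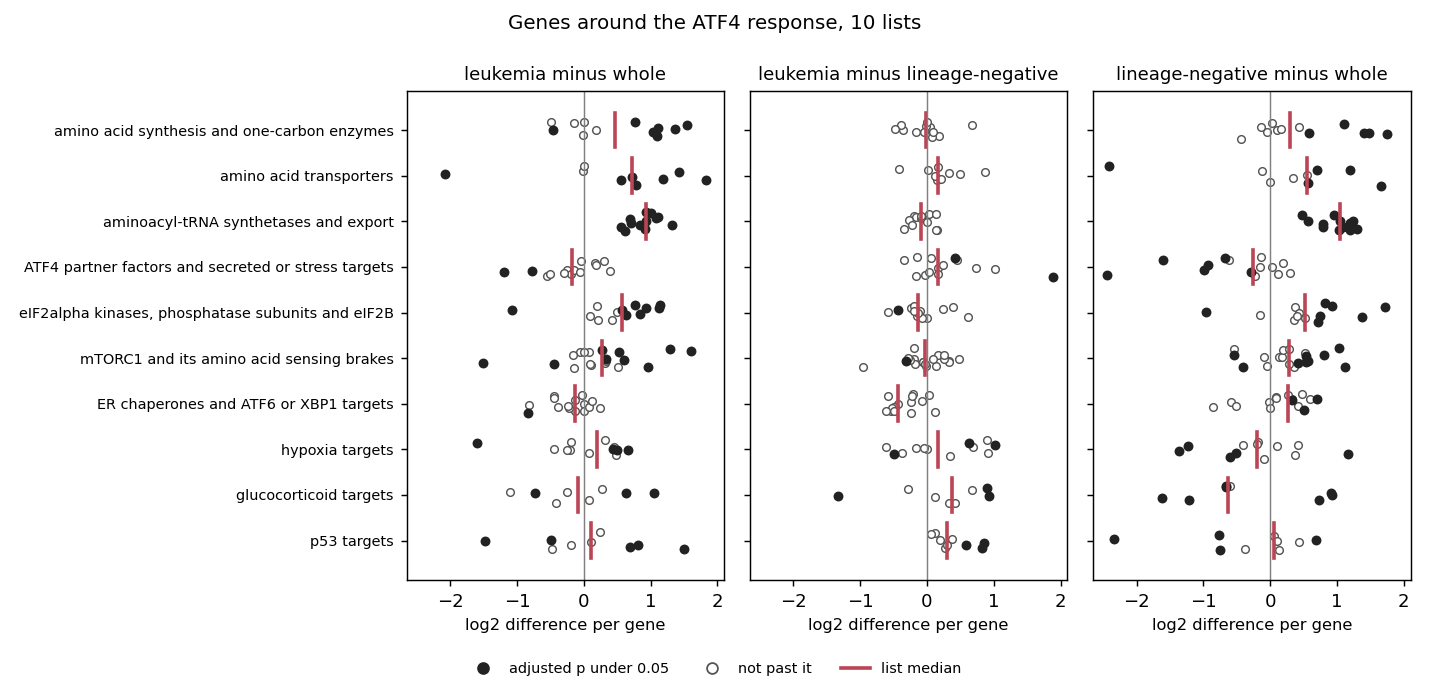
Log2 difference (horizontal axis) of every measured gene in the 10 lists around the ATF4 response (vertical axis), in the 3 comparisons. Filled points passed an adjusted p of 0.05 by limma, open points did not, and red bars are list medians. The 12 synthetase and export genes lie to the right of 0 in both comparisons with whole marrow and around 0, at a median of -0.09, between leukemia and lineage-negative marrow.

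Partner factors of ATF4 and a mixed set of its secreted, redox and autophagy targets made up a further list. Of its 14 measured genes 0 rose in the leukemias against whole marrow and 2 fell (0 and 4 at an unadjusted p under 0.05), with a median of -0.17. They were Jdp2, a repressor of the AP-1 family (-1.19 ± 0.11, limma adjusted p = 0.000538), and Ero1a, an oxidase of the endoplasmic reticulum (-0.78 ± 0.14). Atf3, an early stress factor, read 7.60, 6.76 and 6.39 in leukemias 1, 2 and 3, 5.16, 4.85 and 5.09 in the pools and 6.96, 7.58 and 7.87 in whole marrow. Atf3 rose by 1.88 ± 0.32 against lineage-negative marrow (adjusted p = 0.01) and differed from whole marrow by -0.55 ± 0.32 (adjusted p = 0.265). Jdp2 passed as well against lineage-negative marrow (0.42 ± 0.11, adjusted p = 0.0467), a call lost with the 2 groups alone, with an intensity trend and when any array but whole marrow array 2 or 3 or leukemia 2 was left out. Without leukemia 2, 4 of the 14 rose there. In lineage-negative against whole marrow 0 rose and 6 fell, led by Atf3 (-2.44 ± 0.32). Of all genes, 9.93% were called lower in the leukemias and 13% in lineage-negative marrow, each against whole marrow. In the leukemias 2.95% were called higher against lineage-negative marrow. Of 15 endoplasmic reticulum chaperone genes, the targets of ATF6 and XBP1, 0 rose and 1 fell in the leukemias against whole marrow (0 and 4 at an unadjusted p under 0.05, median -0.13). That gene was Dnajb9 (-0.83), a call lost without whole marrow array 1 (-0.747) or 3 (-0.842) or leukemia 3 (-0.651). After either scaling 4 fell. Against lineage-negative marrow 0 passed, against 7 lower at an unadjusted p under 0.05, with a median of -0.43. Without leukemia 3, 2 fell there. At the unadjusted threshold 15.6% of all genes lay lower against whole marrow and 14.3% against lineage-negative marrow.

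For mTORC1, the complex that Ddit4 restrains, a list of 19 genes held its own subunits and activators as well as its brakes. Their RNA is not a reading of the activity of the complex, which these arrays did not measure. In the leukemias against whole marrow 7 rose and 2 fell (median 0.27). Of all genes, 14.6% were called higher and 9.93% lower there, and the falls in this list were near that share. The count of rises was 4 after either scaling, with the 2 groups alone, and without whole marrow array 1 or 2 or leukemia 3. Nprl3, of the GATOR1 complex that restrains mTORC1, read 7.21, 7.51 and 7.09 in the leukemias, 6.72 to 6.85 in the pools and 5.42 to 5.80 in whole marrow, and rose by 1.61 ± 0.13 (limma adjusted p = 0.000463). Rptor, the mTORC1 scaffold, rose by 1.29 ± 0.18. Of the others that rose, Tsc1, Tsc2, Akt1s1 and Deptor encode inhibitors and Rraga a GTPase that recruits mTORC1 to the lysosome. The calls of Tsc1 (log2 difference 0.334), Akt1s1 (0.269) and Deptor (0.534) were lost after either scaling and with the 2 groups alone. Each was also lost when certain single arrays were left out, among them whole marrow array 1 or 2 and leukemia 3. Those of Tsc1 and Akt1s1 were lost with an intensity trend as well. Sesn3, a paralog of Sesn2, read 5.21, 4.86 and 5.16 in the leukemias, 5.71 to 6.29 in the pools and 5.81 to 7.31 in whole marrow. Sesn3 fell by 1.51 against whole marrow (adjusted p = 0.0113). The other gene that fell, Rragd (-0.44), lost its call when any array but whole marrow array 2 was left out, at values from -0.311 to -0.484. Its call was also lost after cyclic loess and with the 2 groups alone. Sesn1 differed by 0.32 ± 0.24 and did not pass (adjusted p = 0.401). Ddit4l, the paralog of Ddit4, stood between 4.36 and 4.72 on all 9 arrays, below the median of all probe sets, and passed no comparison. Against lineage-negative marrow 0 rose and 1 fell (3 and 3 at an unadjusted p under 0.05). The latter was Mtor at -0.32 (adjusted p = 0.0481), which kept its call without whole marrow array 3 or leukemia 1 and lost it without any other array. The Mtor call was also lost after either scaling, with the 2 groups alone, with an intensity trend and with only genes above the median of all probe sets. In lineage-negative against whole marrow 7 rose and 2 fell, where 21.7% of all genes were called higher and 13% lower.

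Known inducers of Ddit4 outside the ATF4 route were read by their own targets. Of 12 hypoxia targets 3 rose and 1 fell in the leukemias against whole marrow (median 0.20), and 2 rose and 1 fell against lineage-negative marrow (median 0.17). Of all genes, 14.6% were called higher and 9.93% lower against whole marrow, and 2.95% and 5.74% against lineage-negative marrow. The single falls against whole marrow in the hypoxia and glucocorticoid lists were near the 9.93%. The hypoxia target that fell against lineage-negative marrow, Pdk1 (-0.50), lost its call whichever array was left out. Pdk1 read 7.31, 6.94 and 7.33 in the leukemias, 7.57 to 7.80 in the pools and 6.44 to 6.69 in whole marrow. The leukemias thus lay between the wild type groups, with a log2 difference of 0.664 from whole marrow, the largest upward in this list. Bnip3, a mitophagy receptor gene, read 7.03, 6.99 and 7.13 in the leukemias, 6.20, 5.92 and 5.99 in the pools and 6.65, 6.62 and 6.39 in whole marrow. Every leukemia was above every wild type array, and Bnip3 rose by 0.50 ± 0.10 and by 1.02 ± 0.10 (limma adjusted p = 0.00847 and 0.00127). Pfkfb3, a glycolysis regulator, fell by 1.60 against whole marrow (adjusted p = 0.00664). Of 8 glucocorticoid targets 2 rose and 1 fell against each wild type group, and without leukemia 2, 4 rose against lineage-negative marrow. Tsc22d3, which encodes GILZ, read 7.94, 8.03 and 7.78 in the leukemias, 7.30, 6.77 and 6.88 in the pools and 7.84, 7.50 and 7.58 in whole marrow. Tsc22d3 rose by 0.93 ± 0.15 against lineage-negative marrow (adjusted p = 0.00859). Sgk1, a kinase gene, fell by 0.72 against whole marrow and rose by 0.90 against lineage-negative marrow. The glucocorticoid target that fell against lineage-negative marrow was Zbtb16 (log2 difference -1.331). Zbtb16 read 5.32, 4.90 and 4.94 in the leukemias and 5.97 to 6.70 in the pools. The largest rise of this list against whole marrow was that of Per1 (1.053), at 8.28, 7.99 and 7.66 against 6.58 to 7.17. Of 9 p53 targets 3 rose and 2 fell against whole marrow, with Zmat3 at 1.505 ± 0.20 and Trp53inp1 at -1.48 ± 0.22. Against lineage-negative marrow 3 rose and 0 fell, a count that was 0 with the 2 groups alone and without whole marrow array 1, 2 or 3 or pool 2 or 3, and 1 without pool 1 or any 1 leukemia.

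The 5 genes whose profile over the 9 arrays lay nearest to that of Ddit4 were Ccdc92, Cntn3, Hbq1b, Rfk and Cyyr1, at root mean square distances of 0.366, 0.421, 0.439, 0.439 and 0.441 log2 units after each gene was centred on its mean. Clone names, predicted genes, olfactory receptors and unnamed loci were left out before these 5 were taken. The counts of nearer genes given below include them. All 5 had their highest values in the leukemias, as the choice by likeness fixes. Ccdc92 read 6.82, 8.14 and 6.95 there, 5.74 to 5.81 in the pools and 4.89 to 5.08 in whole marrow. Rfk, riboflavin kinase, read 10.69, 11.55 and 10.98 in the leukemias, 9.45 to 10.09 in the pools and 8.56 to 9.14 in whole marrow. Hbq1b, a theta globin gene with a near-identical copy whose signal the probe set may share, read 7.41, 8.20 and 7.73 in the leukemias. Of the ATF4 response genes Asns came nearest, at 0.723, with 187 genes nearer. Atf4 stood at 0.935 with 1239 nearer and Phgdh farthest at 1.405, with 18609 nearer.

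**Figure D4:**
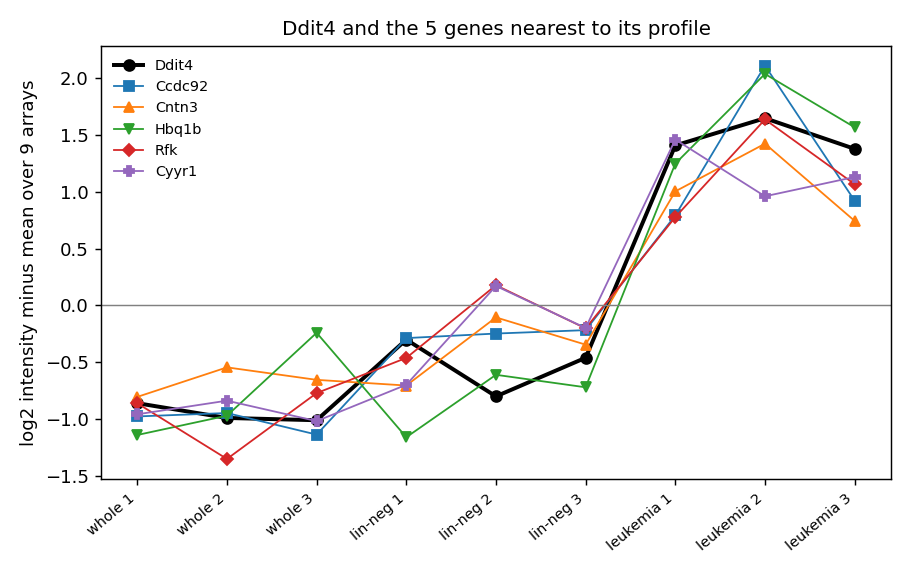
Log2 intensity minus the gene's mean over the 9 arrays (vertical axis) for Ddit4, in black, and the 5 genes nearest to its profile, across the arrays (horizontal axis). The 6 genes are highest in the 3 leukemias, and lineage-negative pools lie above whole marrow for Ddit4 in all 3 arrays.

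Markers of other cell types moved with these comparisons. Of all genes, 14.6% were called higher and 9.93% lower in the leukemias against whole marrow. The shares were 2.95% and 5.74% against lineage-negative marrow, and 21.7% and 13% in lineage-negative against whole marrow. Of 9 measured erythroid markers 6 rose and 0 fell in the leukemias against whole marrow (median 1.92), and their mean log2 intensity was 8.74 to 9.74 in the leukemias, 8.73 to 9.24 in the pools and 6.82 to 8.36 in whole marrow. Of 9 B cell markers 9 fell, with a mean of 5.02 to 5.35 against 6.71 to 8.71, and of 10 mature neutrophil markers 7 fell. Of 9 cycling cell markers 7 rose (median 0.42), with a mean of 9.54 to 9.57 against 8.92 to 9.16 in whole marrow and 9.38 to 9.62 in the pools. Lineage-negative marrow differed from whole marrow by 9 B cell and 10 neutrophil markers lower and 6 of 8 stem and progenitor markers higher. It also had 9 of 10 monocyte and macrophage, 5 of 8 T and NK cell and 1 of 7 plasma cell markers lower and 5 of 6 megakaryocyte and platelet, 5 of 9 erythroid and 5 of 9 cycling cell markers higher. The leukemias differed from lineage-negative marrow by 9 of 10 neutrophil and 5 of 10 monocyte and macrophage markers higher. Lower there were 6 of 8 stem and progenitor markers, with a mean of 6.72 to 7.13 against 7.92 to 8.59, 3 of 6 megakaryocyte and platelet markers, with a mean of 6.52 to 8.16 against 8.89 to 9.59, and 1 of 8 T and NK cell markers. In the leukemias 6 of 8 T and NK cell markers fell against whole marrow. Of 10 monocyte and macrophage and 7 plasma cell markers 2 and 2 fell and 0 rose. At an unadjusted p under 0.05 by limma 2 and 3 fell and 0 rose, where 15.6% of all genes lay lower. Of 6 megakaryocyte and platelet and 8 stem and progenitor markers, 1 rose and 2 fell in each list. The part of these cell types in the values of Ddit4, Asns, Phgdh and the other genes was not tested.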

How the data were processed

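RNA of 9 mouse bone marrow samples was labelled with biotin and hybridised to Affymetrix arrays, 1 per sample. Per the submitters' processing notes the arrays were processed by RMA in Partek, and the deposited values are intensities on a linear scale, as their range shows. Versions, filters and annotation build were not given in the sources used here. RMA brings all arrays to a common distribution, so differences are relative to the other genes.

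Log2 was taken of the deposited intensities. Of 28853 probe sets, 21789 carried 1 gene symbol, 1621 several and 5443 none in the platform table, and only the first were used. The probe set with the highest mean stood for each of the 999 genes with several, which left 19938 genes, of which 19856 matched a RefSeq GRCm38.p6 gene. A further probe set that names Phgdh together with another gene was not used. A linear model over the 3 groups was fitted in limma 3.58.1 (R 4.3.3), with moderated variances (6 residual and 2.62 prior degrees of freedom) and Benjamini-Hochberg adjustment over all genes of a comparison at a threshold of 0.05. Errors with ± are standard errors of the fit unless called SD, n is 3 arrays per group, intervals are at 95%, and the fit was tested on simulated data. The number of arrays limits the precision. P-values set a difference against the spread between these samples, with 1 estimate per gene shared by the 3 groups. Pools and single mice enter that estimate alike. The median SD over all genes was 0.101 in the lineage-negative pools, 0.127 in whole marrow and 0.127 in the leukemias.

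Members and lists were chosen with earlier results of these data known. Named were all 9 members, at most the 2 listed genes that changed most in each direction in a comparison, and the 5 genes nearest to Ddit4. The kinases Eif2ak1, Eif2ak2 and Eif2ak4, the paralogs Ddit4l and Sesn1, and Psph, Tsc1, Tsc2, Akt1s1, Deptor, Rraga, Eif2b1, Cars, Nars and Erg were named outside that rule. Listed genes without a probe set of 1 symbol were Pycr1, Aars, Gdf15, Eif2s1 and Cdkn1a. Counts of cell type markers are over the measured ones. Motifs were searched as exact letters on both strands with Python 3.11.15.

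Alternatives were 75th percentile centring, cyclic loess, only the 2 groups compared, an intensity trend with robust estimation, only the 11001 genes with a group mean above the median of all probe sets, the mean of a gene's probe sets, leaving out each array and, for wild type marrow, the replicate number as a block.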

Additional observations from a re-analysis of the deposited data

How the results depend on the processing

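Of the 8 ATF4 response genes, Asns alone passed against whole marrow in all 15 alternatives, with adjusted p from 7.42e-05 to 0.00292 by limma, and it passed between the wild type groups in all 16. The Ddit4 differences ranged from 2.311 to 2.478 and from 1.854 to 2.108. Under 75th percentile centring the median over all genes moved by -0.083 against whole marrow and by -0.124 between the wild type groups. The genes called higher and lower against whole marrow were 2901 and 1980, 2215 and 2431 under that centring and 2174 and 2428 under cyclic loess. Against lineage-negative marrow they were 589 and 1144, then 715 and 909, then 719 and 881. Between the wild type groups they were 4328 and 2587, then 3342 and 3299, then 3253 and 3095. Leaving out 1 array gave 2350 to 2835 genes higher and 1248 to 1915 lower against whole marrow, 268 to 827 and 490 to 1174 against lineage-negative marrow, and 3611 to 4462 and 1863 to 2748 between the wild type groups, where members called ran from 2 to 5. Members called against lineage-negative marrow ran from 0 to 2, with 2 without whole marrow array 3 (Chac1 up, Phgdh down) or leukemia 3 (Psat1 and Phgdh down). The count of 1248 came without whole marrow array 1. Between the wild type groups members called were 3 under 75th percentile centring and 2 under cyclic loess. Differences near 0 turned sign. With 1 array left out, that of Chac1 against whole marrow ran from -0.277 to 0.241 (without whole marrow array 1), with 0.061 without leukemia 1, and that of Sesn2 from 0 (without leukemia 2) to 0.283. Between the wild type groups Ddit3 stood at -0.088 under centring, -0.147 under cyclic loess and from -0.094 (without whole marrow array 2) to 0.124 with 1 array left out, and Atf4 from -0.175 to 0.062 (without whole marrow array 3), with 0.010 without lineage-negative pool 3. Where no number or scaling above shows the reason, the cause was not tested. Wild type samples share only a number: the deviations of same-numbered arrays correlated at 0.312, -0.009 and -0.009. With the replicate number as a block, 4346 genes were higher and 2547 lower, and 5 members were called, Ddit4 at an adjusted p of 0.0358, so it changed no member's call. Trib3 was not tested among the bright genes. Signals of Trib3, of Ddit4l, of Slc7a11 outside whole marrow and of Chac1 in lineage-negative marrow lie near or below the median of all probe sets. Those of Ddit4 in whole marrow (5.27 to 5.42), Sesn2 in lineage-negative marrow (5.07 to 5.49) and Phgdh in leukemias 1 and 2 (5.25 and 4.96) lie near it too. Such levels limit how low a signal and how small a change can be read.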
